A study of Mus musculus with 9 samples.

Results

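The core circadian clock genes of the liver were examined across untreated and insulin-treated diabetic mice and normal mice. The genes were Arntl, Clock, Per1, Per2, Per3, Cry2, Nr1d1, Nr1d2 and Ciart, 9 of the 20972 genes named on the array. They were chosen by name from the clock genes that stood out in an earlier look at the same arrays, so their differences between groups are given as a description with no p-value, and counts of members past a threshold stand only beside the share of all probes. Each was measured by 1 probe with 1 spot per array, found through its RefSeq accession, and all 9 probes passed the filter on dim signals.

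The circadian clock is a loop of transcription factors that gives most cells a daily rhythm. ARNTL (also called BMAL1) and CLOCK form a dimer that binds E-box sequences and activates the Per and Cry genes, Nr1d1, Nr1d2, Ciart and the output gene Dbp. PER and CRY proteins then inhibit the dimer, while NR1D1 and NR1D2 (REV-ERB alpha and beta) repress Arntl through ROR elements. In the liver this makes Arntl high when the E-box genes are low and the reverse, and the timing follows feeding as well as light.

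Total RNA from livers of male C57B/6 J mice, all 20 weeks old, was hybridised to 1-colour Agilent arrays, with 1 array per mouse. STAM mice, in which diabetes, steatohepatitis and liver tumours develop in turn, received streptozotocin as newborns, which destroys insulin-secreting cells, and a high-fat diet from weaning on. STAM-NON mice (n = 3) had no further treatment, and no vehicle injection is named in their labels. STAM-INS mice (n = 3) had repeated daily subcutaneous injections of insulin glargine, a long-acting insulin, and Normal mice (n = 3) were lean mice on standard chow without streptozotocin. Streptozotocin and the high-fat diet were thus shared by both STAM groups and differ together from Normal. The time of day at which livers were taken, and whether it was the same in every group, is not given in the sources used here, nor is whether the pieces held tumour tissue. In bulk liver, fewer cells of a type and less RNA per cell cannot be told apart.

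All STAM arrays lay on 1 slide and all Normal arrays on another, so slide and group cannot be told apart in comparisons with Normal. All STAM-NON arrays lay in row 1 of their slide and all Normal arrays in row 2. Row and group therefore coincide between STAM-NON and Normal as well. Between 46.2% and 65.0% of spots were well above background per array, no spot was saturated, and replicate arrays had pairwise r of 0.979 to 0.991 across tested probes, which are not independent replicates. Hepatocyte markers were bright on every array, and their summed signal was 2096 to 2751 times the array's 75th-percentile probe in STAM-NON, 2626 to 2965 times in STAM-INS and 3102 to 3292 times in Normal.

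The promoters of these genes hold the sequences through which the loop closes, and the ones with a known clock motif are shown here. Windows of 250 bases before and 50 bases after each transcript start came from RefSeq (build GRCm38.p6), which gave 12 windows for 8 of the 9 genes. Per2 had no window there. Motifs were searched on both strands: the E-box CACGTG, the E-prime box CACGTT, the D-box TTATGTAA or TTATGCAA, the cAMP response element TGACGTCA, and the ROR element by its name. Capitals below mark the motif, read on the strand of the gene, where the E-prime box can appear as its reverse complement. For Ciart, Per3 and Nr1d1 the part of the window upstream of the annotated gene is printed 5′ to 3′, and for Per1, Cry2 and Arntl a short stretch around each motif.
Ciart, chr3:95882258-95882478, minus strand: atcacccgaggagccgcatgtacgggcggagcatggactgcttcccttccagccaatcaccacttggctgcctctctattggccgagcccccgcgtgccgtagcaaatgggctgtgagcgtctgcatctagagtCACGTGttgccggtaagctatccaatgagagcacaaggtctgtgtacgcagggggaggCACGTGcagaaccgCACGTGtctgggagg
Per3, chr4:151044708-151044915, minus strand: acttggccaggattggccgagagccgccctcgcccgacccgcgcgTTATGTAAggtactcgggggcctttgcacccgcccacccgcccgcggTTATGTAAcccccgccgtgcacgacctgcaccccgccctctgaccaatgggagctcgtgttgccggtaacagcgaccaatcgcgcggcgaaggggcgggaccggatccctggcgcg
Nr1d1, chr11:98775378-98775627, minus strand: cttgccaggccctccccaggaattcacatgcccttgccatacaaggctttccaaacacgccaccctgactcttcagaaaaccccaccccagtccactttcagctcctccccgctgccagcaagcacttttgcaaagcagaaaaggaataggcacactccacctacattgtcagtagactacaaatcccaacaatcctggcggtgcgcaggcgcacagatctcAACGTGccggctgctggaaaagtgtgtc
Per1 E-box, chr11:69098771-69098800, plus strand: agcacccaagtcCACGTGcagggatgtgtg
Per1 D-box, chr11:69098914-69098943, plus strand: agggcctggcaTTATGCAAcccgcctccca
Cry2 E-prime box, chr2:92434218-92434247, minus strand: acacatggtgggAACGTGagggggcggagc
Arntl ROR element, chr7:113207528-113207556, plus strand: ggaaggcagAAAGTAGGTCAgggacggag

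Ciart held 3 E-boxes, which begin 116, 58 and 44 bases before the start. Per3 held D-boxes, the motif bound by DBP, TEF, HLF and the repressor NFIL3, at 205 and 158 bases before its start, and no E-box in this window. Per1 had an E-box and a D-box, 166 and 24 bases before the start of its first window. E-prime boxes lay 166 bases before the start in Cry2 and 28 bases before it in Nr1d1. The ROR element of Arntl lay 27 to 37 bases after the start of the latter of its 2 windows. Over all 32851 windows of the table, 7.15% held an E-box, 4.69% an E-prime box, 1.66% a D-box, 1.79% a cAMP response element and 0.384% a ROR element. No window of the members held a cAMP response element, and none of these motifs was found in Clock or Nr1d2. A match is a run of letters only, and binding was not measured.

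**Figure D1:**
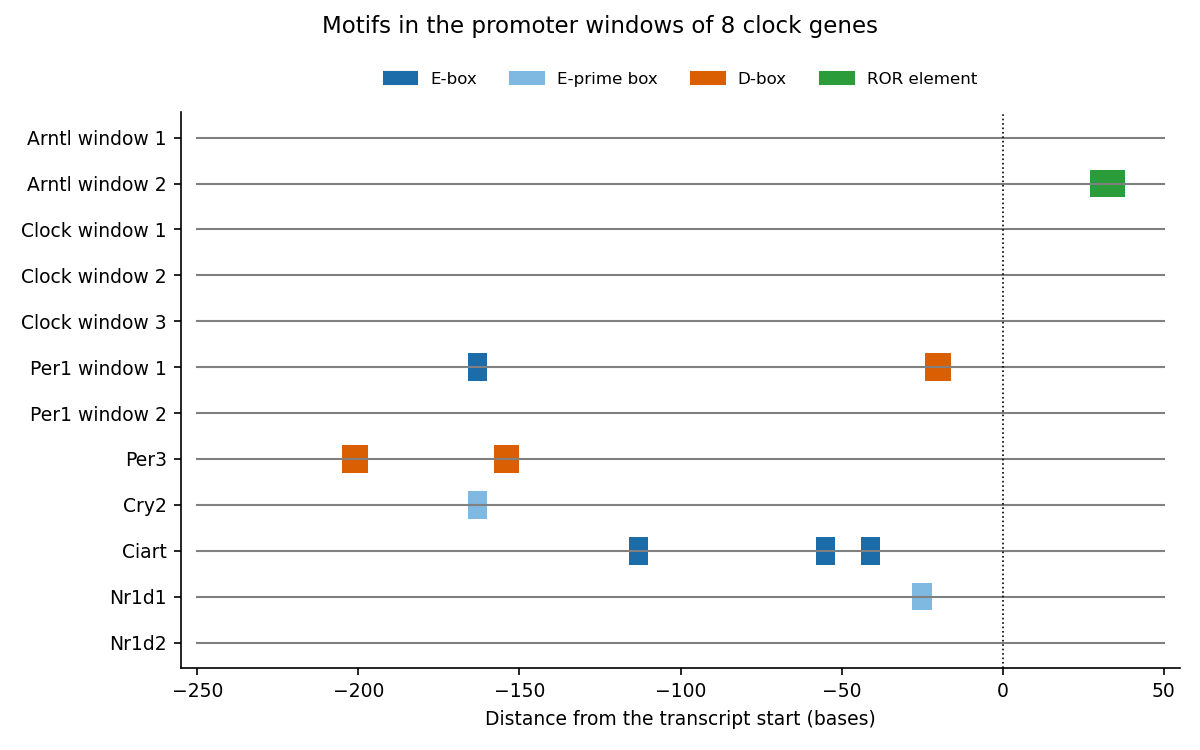
Positions of clock motifs in the promoter windows of 8 clock genes, with distance from the transcript start in bases on the x axis (250 before to 50 after) and 1 line per window. Coloured blocks are motifs; the 3 E-boxes of Ciart, the 2 D-boxes of Per3 and the ROR element of Arntl after the start stand out.

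Levels are written as centred log2 signal: the processed signal was put on a log2 scale and the 75th percentile of all probes on that array was subtracted, so that 0 is the level of the 75th-percentile probe. Levels of different genes are not compared on this scale. Differences carry the standard error (SE) of a fit over all 9 arrays, and values for 3 mice are given in the order of replicates 1, 2 and 3.

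The activator arm was higher in STAM-INS than in both other groups. Arntl, the non-redundant partner of the activating dimer, had levels of 1.46, 1.40 and 1.03 in STAM-INS. In STAM-NON the Arntl levels were -1.67, -1.49 and -0.9997, and in Normal they were -1.80, -1.89 and -2.68. Every STAM-INS array lay above the level of the 75th-percentile probe and every other array below it, with no overlap among the 3 groups. STAM-INS exceeded STAM-NON by 2.68 (SE 0.27), or 6.42-fold, and exceeded Normal by 3.42 (SE 0.27), or 10.7-fold. STAM-NON was 0.74 (SE 0.27) above Normal, so Arntl was ordered STAM-INS, STAM-NON, Normal, and the last step was the smallest.

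Clock, which encodes the partner of ARNTL, moved the same way over a much narrower range. Its levels were 0.70, 0.57 and 0.80 in STAM-INS, -0.25, 0.25 and 0.08 in STAM-NON, and 0.04, -0.17 and 0.04 in Normal. The STAM-INS arrays lay above all others, by 0.66 (SE 0.15), or 1.58-fold, against STAM-NON and by 0.72 against Normal. STAM-NON and Normal overlapped, with a difference of 0.06 that is smaller than its SE of 0.15.

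The Per genes encode the period proteins that, with CRY, shut the dimer off, and all 3 had lower means in STAM-INS. Per3 levels were -4.48, -5.78 and -4.54 in STAM-INS, -1.69, -1.70 and -1.75 in STAM-NON, and -2.07, -1.39 and -2.13 in Normal. Only 1 of the 3 STAM-INS arrays had Per3 well above background, while all 6 other arrays did. The gap in Per3 between STAM-INS and STAM-NON was -3.22 (SE 0.35), and -3.07 against Normal. STAM-NON lay within the range of the Normal arrays, 0.15 (SE 0.35) higher on average. After normexp background correction the Per3 gap between STAM-INS and STAM-NON was -0.93. This correction adds an offset of 50 to every spot, which narrows log2 differences most where signals are dim.

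Per2, an inhibitor of the dimer whose transcription also answers to feeding and hormones, had levels of -2.42, -1.87 and -1.53 in STAM-INS. It was at -0.63, -0.50 and -0.24 in STAM-NON and at -0.67, -0.72 and -0.89 in Normal. The groups did not overlap. Per2 in STAM-INS was lower than STAM-NON by a difference of -1.48 (SE 0.22), or 2.79-fold, and differed from Normal by -1.18, while STAM-NON was 0.30 (SE 0.22) above Normal. After normexp correction the STAM-INS to STAM-NON gap was -0.89.

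Per1, a period gene that is also induced quickly by acute signals, was the most scattered of the 3. Its levels were 1.68, 3.57 and 2.36 in STAM-INS, 3.85, 3.56 and 4.47 in STAM-NON, and 3.56, 3.72 and 4.16 in Normal. STAM-INS replicate 2 reached the lowest arrays of both other groups, and the remaining STAM-INS arrays lay below them. The mean difference of STAM-INS was -1.42 (SE 0.45) from STAM-NON and -1.28 from Normal. Against STAM-NON the gap was -2.28 for the single STAM-INS array in the same slide row and -0.996 for the other 2.

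Cry2, a cryptochrome that represses the dimer together with the PER proteins, had levels of 3.41, 3.02 and 3.05 in STAM-INS. STAM-NON arrays read 3.96, 3.92 and 3.77, and Normal arrays 4.11, 3.94 and 4.14. The STAM-INS arrays lay below every other array, by -0.73 (SE 0.14), or 1.65-fold, on average against STAM-NON and by -0.91 against Normal. STAM-NON and Normal overlapped narrowly, with a difference of -0.18 (SE 0.14).

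Ciart (also called Chrono), a repressor that binds ARNTL directly, was too dim to measure in STAM-INS. Its levels in STAM-NON were -1.19, -1.25 and -1.24, and in Normal -0.93, -0.61 and -0.14. On none of the 3 STAM-INS arrays was Ciart well above background, with measured values of -4.80, -5.07 and -5.80, so only a bound can be given there. With these values replaced by the lowest signal of any probe well above background on the array, STAM-INS was 6.84-fold below STAM-NON. Against Normal it was 10.9-fold below. The limit for the Ciart spot itself can lie higher, so both bounds are approximate. The fitted difference, which takes the dim values at face value, was -4.00 (SE 0.28) from STAM-NON and -1.25 after normexp correction. STAM-NON lay below Normal on every array, with a mean difference of -0.67 (SE 0.28).

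**Figure D2:**
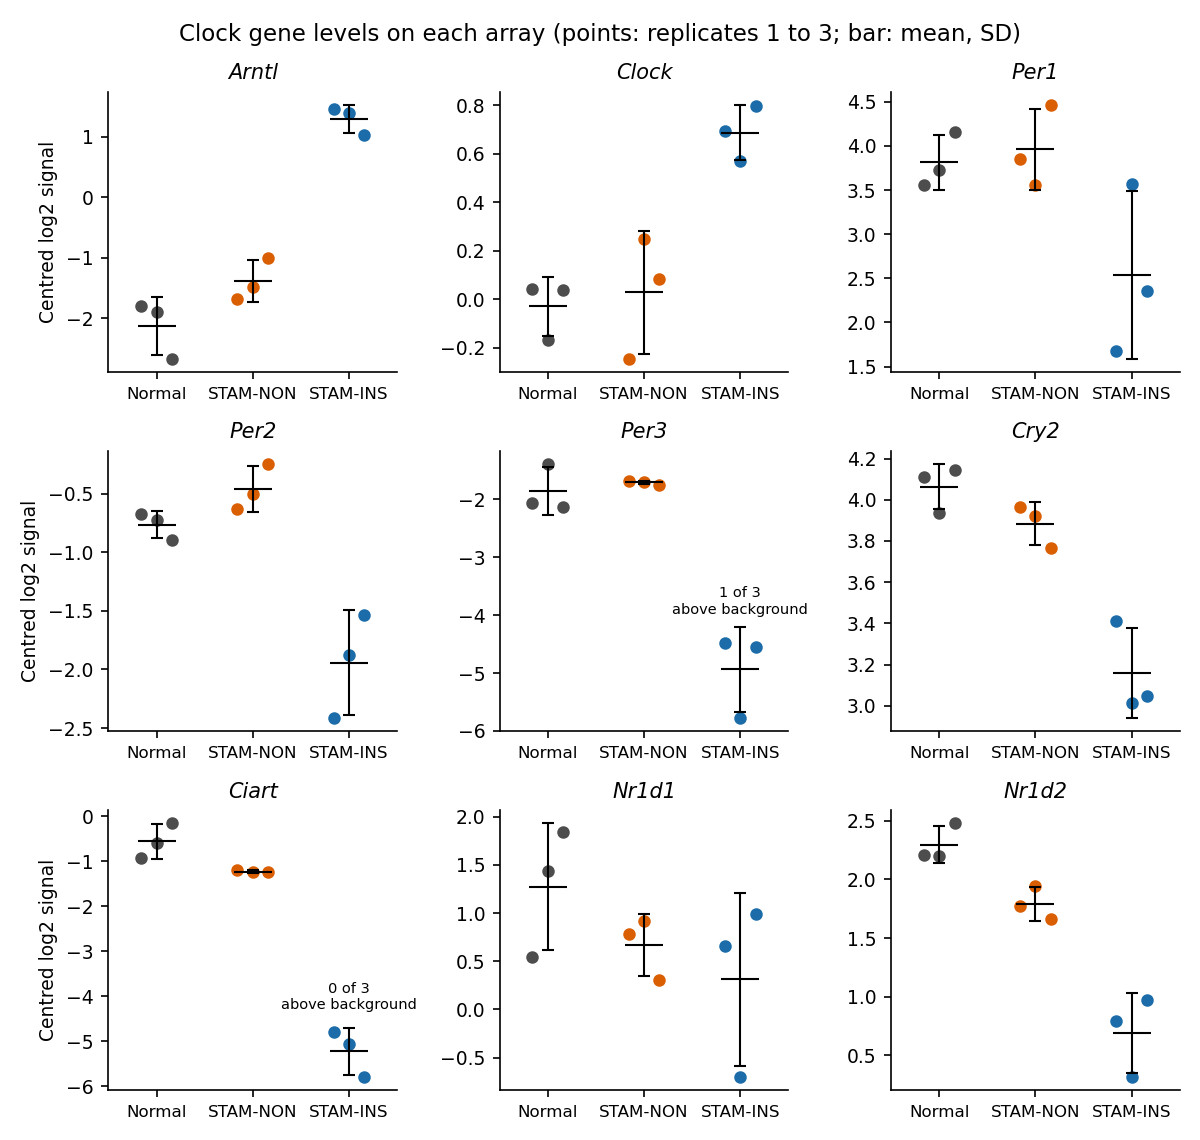
Centred log2 signal of each clock gene (y axis, own scale per panel) in Normal, STAM-NON and STAM-INS livers. Points are the 3 arrays of a group and bars give mean and SD; STAM-INS stands above for Arntl and Clock and below for Per2, Per3, Cry2, Ciart and Nr1d2, while Per1 and Nr1d1 overlap.

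The nuclear receptors that repress Arntl, Nr1d2 and Nr1d1, had the same order of means, and only Nr1d2 had groups that did not overlap. Nr1d2 had levels of 0.79, 0.31 and 0.97 in STAM-INS, 1.77, 1.94 and 1.66 in STAM-NON, and 2.21, 2.20 and 2.48 in Normal. The 3 groups were fully separated in the order Normal, STAM-NON, STAM-INS. Nr1d2 differed by -1.10 (SE 0.18), or 2.14-fold, between STAM-INS and STAM-NON, by -1.60 between STAM-INS and Normal, and by -0.51 (SE 0.18) between STAM-NON and Normal.

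Nr1d1, like Per1, had groups that overlapped in all comparisons. Its levels were 0.65, -0.71 and 0.99 in STAM-INS, 0.78, 0.92 and 0.31 in STAM-NON, and 0.55, 1.44 and 1.84 in Normal. STAM-INS replicate 2 was the lowest of the 9 arrays and STAM-INS replicate 3 lay above all 3 STAM-NON arrays. The mean difference of -0.36 between STAM-INS and STAM-NON was smaller than its SE of 0.47, and without STAM-INS replicate 2 it turned to 0.15. Against Normal, the differences were -0.96 for STAM-INS and -0.61 for STAM-NON, both with SE 0.47.

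Across the 9 members the differences were wider in the comparisons that hold STAM-INS. STAM-INS had 2 members higher and 7 lower than STAM-NON, with a median difference of -1.10 against 0.02 over all 26289 probes tested. STAM-NON had 5 higher and 4 lower than Normal, with a median of 0.06 against -0.11 over all probes, and STAM-INS minus Normal gave -1.18 against -0.07. The last 2 comparisons share the Normal arrays, and the first and last share the STAM-INS arrays.

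Read with the members' selection in mind, 3 of 9 passed an adjusted p of 0.05 in limma between STAM-INS and STAM-NON (Arntl higher, Per3 and Ciart lower). Per3 and Ciart had entered the fit through STAM-NON and Normal, with 1 and 0 of 3 STAM-INS arrays well above background. The share of all probes that passed was 0.0951%, made up of 0.0114% higher and 0.0837% lower. The groups did not overlap for 7 of 9 members, beside 12.5% of all probes. Between STAM-NON and Normal 0 of 9 passed, beside 14.8% of all probes, and 4 (Arntl, Per2, Nr1d2 and Ciart) had groups that did not overlap, beside 40.1%. STAM-INS against Normal gave 7 of 9 past the threshold, 2 higher and 5 lower, beside 13.2% of all probes (5.37% higher and 7.87% lower), and 7 without overlap beside 43.3%. Since the members were selected on these arrays, their calls are no independent evidence, and nothing is read from these shares. With STAM-NON replicate 2 or STAM-INS replicate 3 left out, only Ciart of the 9 passed between STAM-INS and STAM-NON.

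**Figure D3:**
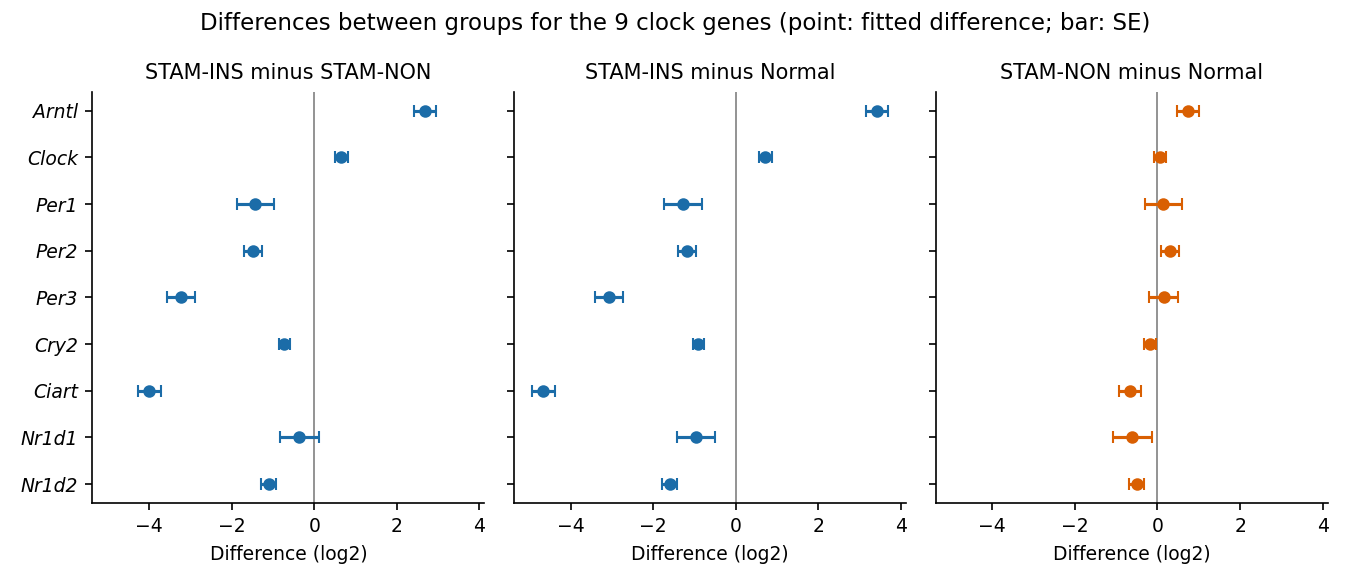
Fitted differences between groups (x axis, log2) for the 9 clock genes, with bars for the SE and 1 panel per comparison. Both panels with STAM-INS show Arntl and Clock right of 0 and the rest left of it, from -0.36 for Nr1d1 to -4.00 for Ciart against STAM-NON, where Ciart was not above background in STAM-INS, while STAM-NON minus Normal stays between -0.67 and 0.74.

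All STAM-NON arrays and STAM-INS replicate 1 lay in the same row of the slide. Within this row the difference between STAM-INS and STAM-NON was 2.85 for Arntl, 0.67 for Clock, -2.77 for Per3, -1.96 for Per2, -0.47 for Cry2, -0.998 for Nr1d2, -3.57 for Ciart and -0.02 for Nr1d1, each from 1 STAM-INS mouse with no test. Only Nr1d1 came near 0 there. A fit with the row as a block can estimate the row only within STAM-INS, from replicate 1 against the other STAM-INS arrays. A shift under this block therefore cannot be told apart from the scatter of 1 mouse. STAM-NON minus Normal moved under it from 0.14 to 1.43 for Per1 and from 0.30 to 1.02 for Per2. It moved from 0.15 to -0.53 for Per3 and from -0.67 to -1.31 for Ciart. Arntl, from 0.74 to 0.49, and Clock, from 0.06 to 0.05, moved less.

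The clock holds further parts, and a list of 33 other clock genes was written from their known roles, of which 28 were tested. Between STAM-INS and STAM-NON, 4 of 28 fell and 0 rose at an adjusted p of 0.05 (limma), beside 0.0951% of all probes. An unadjusted p under 0.05 was found for 10 of 28, as for 8.98% of all probes. The median of the list was -0.15, beside 0.02 over all probes. Among the regulators of clock proteins, 1 of 15 passed: Usp2, a deubiquitinase with a rhythmic transcript, fell by 2.89 (SE 0.37, limma adjusted p = 0.0428). The casein kinases that act on PER stability, Csnk1d at 0.01 and Csnk1e at -0.53, did not pass. Among the outputs, 3 of 8 passed, all lower. Dbp, an E-box target whose protein activates at D-boxes, fell by 2.83 (limma adjusted p = 0.0224), Wee1, a cell cycle kinase, fell by 2.20 (limma adjusted p = 0.00163), and Tef, another D-box activator, fell by 1.37 (limma adjusted p = 0.0269). The fall of Dbp, Usp2 and Wee1 was known when the list was written. The other Dbp probe differed by -3.09. Wee1 passed under every alternative run, and Dbp, Tef and Usp2 each lost their call under several.

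Of the other loop components, 0 of 5 tested passed between STAM-INS and STAM-NON, and 2 of 5 had an unadjusted p under 0.05. Nfil3, the repressor that competes at D-boxes, came closest, at 4.40, 4.63 and 4.25 in STAM-INS and 2.98, 3.15 and 2.92 in STAM-NON. Its groups did not overlap, and the difference was 1.40 (SE 0.19, limma adjusted p = 0.0552). Timeless had a difference of -0.44 and Rora, an activator at ROR elements, of -0.17, and neither passed. Cry1, Npas2, Arntl2, Rorb and Bhlhe41 were not tested. The Cry1 probe was well above background on 2 STAM-NON, 1 STAM-INS and 1 Normal array and that of Npas2, the paralog of Clock, on 0 arrays of each group.

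**Figure D4:**
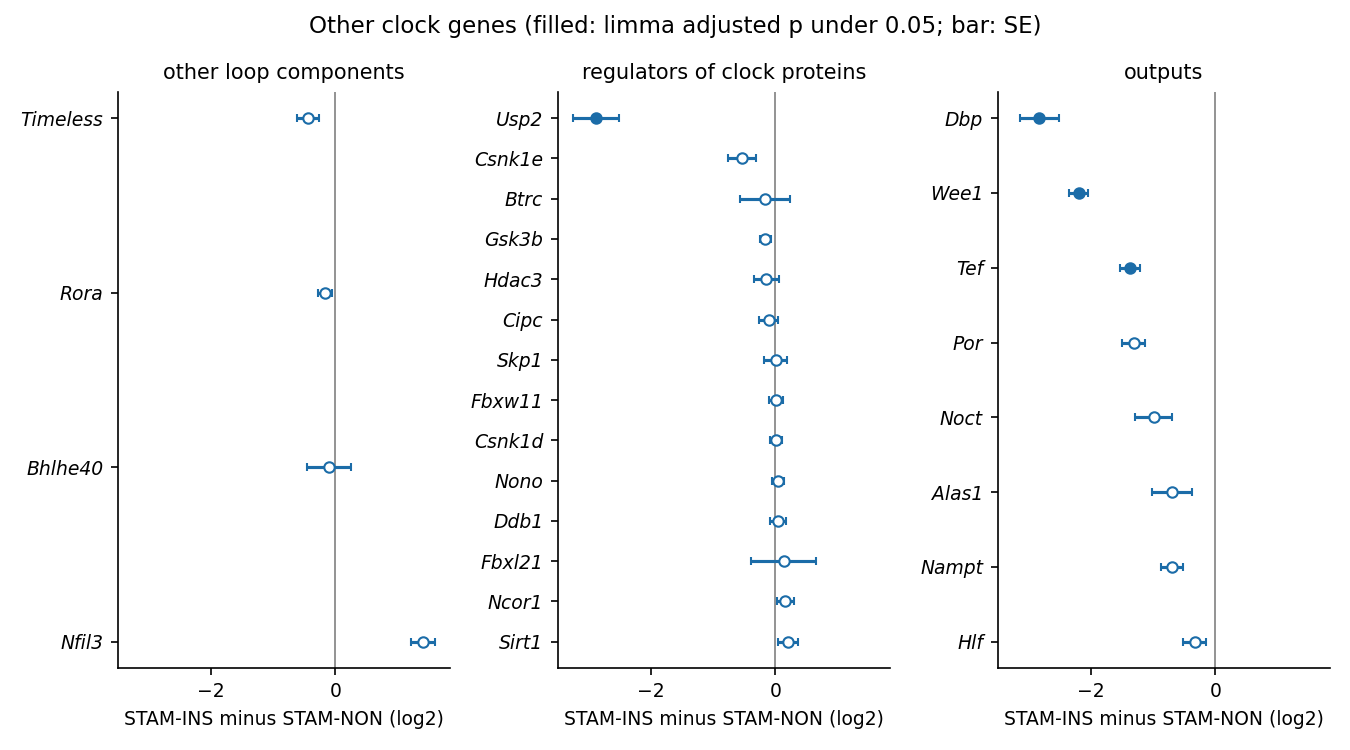
Differences between STAM-INS and STAM-NON (x axis, log2, with SE bars) for tested genes of the other clock lists, in 3 panels by role. Filled points passed the threshold, which are Usp2, Dbp, Wee1 and Tef; all 8 outputs lie left of 0 and most regulators lie near it.

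Between STAM-NON and Normal, 2 of these 28 genes passed, 1 higher and 1 lower, beside 14.8% of all probes. Timeless, named for this comparison after its values were seen, rose by 0.86 (SE 0.18, limma adjusted p = 0.0225). A further Timeless probe gave 0.88 (SE 0.36, limma adjusted p = 0.1255) and did not pass. The calls of the 2 genes were lost under median centring. STAM-INS against Normal gave 9 of 28, beside 13.2% of all probes. Nfil3 was higher by 1.35 (limma adjusted p = 0.00539) and 8 genes were lower.

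Stress hormones and feeding can reset liver clock genes, so transcripts that answer to either were set beside the members. Of 10 genes of the acute stimulus and glucocorticoid list, 0 passed between STAM-INS and STAM-NON and 0 had an unadjusted p under 0.05 (limma). The largest differences were -0.87 for Fos, -0.43 for Egr1 and -0.34 for Atf3, and the list median was -0.19. Against Normal, 2 of 10 passed in STAM-NON (limma), Fos and Atf3, both higher, beside 14.8% of all probes. Fos was well above background on 0 Normal arrays and entered the fit through STAM-NON. Atf3 was also higher in STAM-INS than in Normal, by 1.67 (limma adjusted p = 0.0384). Of 10 fasting, feeding and insulin genes, 0 passed between STAM-INS and STAM-NON and 1 had an unadjusted p under 0.05, with a list median of 0.04. Fasn, the fatty acid synthase, was 1.17 (SE 0.51) higher in STAM-INS (limma adjusted p = 0.554). Pck1, a gluconeogenic enzyme that insulin represses, differed by -0.50 (SE 0.24, limma adjusted p = 0.582). Against Normal, 0 of these 10 genes passed in STAM-NON, beside 14.8% of all probes, and 1 in STAM-INS, beside 13.2%. The 1 was Fasn, higher by 2.48 (SE 0.51, limma adjusted p = 0.0198). The part of these signals in the clock gene levels was not tested.

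Of 28 cell type markers tested, 0 passed between STAM-INS and STAM-NON in limma, beside 0.0951% of all probes. An unadjusted p under 0.05 (limma) was found for 2 of 28, beside 8.98% of all probes. These were Sox9, a biliary marker, with a difference of 0.60 (SE 0.19) and no overlap of the groups, and Lrat, a stellate cell marker, with -0.76 (SE 0.31). Nkg7 also had groups without overlap, at a difference of -0.15 (SE 0.10). Groups thus did not overlap for 2 of 28 markers, beside 12.5% of all probes. The part of these cells in the clock gene levels was not tested. Summed macrophage signal (4 of 5 markers tested) was 87.9 to 142.7 times the 75th-percentile probe in STAM-NON, 79.9 to 157.3 in STAM-INS and 53.05 to 75.04 in Normal. Neutrophil signal (2 of 3 tested) was 5.74 to 195.6, 7.10 to 25.4 and 2.46 to 3.08 in the same order, and stellate and fibroblast signal (5 of 5) was 11.46 to 19.3, 6.43 to 16.3 and 5.19 to 9.82. Biliary signal (3 of 4 tested) was 1.07 to 1.96, 1.40 to 1.60 and 0.447 to 1.11, and endothelial signal (4 of 4) 31.7 to 50.2, 25.4 to 41.4 and 34.3 to 40.3. T and NK cell signal (2 of 3 tested) was 7.63 to 8.84, 7.63 to 10.1 and 8.56 to 9.27. Erythroid signal (2 of 2) was 43.4 to 380.1, 58.7 to 482.3 and 73.9 to 89.6. Adipocyte markers (Adipoq, Lep, Plin1) were too dim to be tested, and of the pancreas markers only Ins2 was tested, at 0.316 to 0.410. Macrophage signal was higher in both STAM groups than in Normal, and of its 4 tested markers only Clec4f passed. Over all markers, 4 of 28 passed between STAM-NON and Normal and 3 of 28 between STAM-INS and Normal (limma). The shares of all probes were 14.8% and 13.2%. Besides Clec4f, Cps1 was lower and Sox9 higher in both STAM groups, and Krt7 was higher in STAM-NON. Krt7 was well above background on only 1 Normal array and entered the fit through the STAM groups. The part of these cells in the differences from Normal was not tested.

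The genes whose pattern over the 9 arrays was most like that of Arntl were found by the root mean square difference of log2 signals, each centred on its own mean, with the members left out. Apol10b was closest at 0.62, followed by Kap at 0.68, Dnmt3b at 0.75, Mvd at 0.76 and Atp11a at 0.77, where the profile of Arntl itself had an SD of 1.499. None followed it closely. All 5 had their highest mean in STAM-INS and their lowest in Normal, from -5.21 in Normal to -2.10 in STAM-INS for Apol10b and from -0.93 to 2.16 for Mvd, an enzyme of cholesterol synthesis. Apol10b in Normal, and Kap in STAM-NON (-4.79) and Normal (-5.51), lay below -4.00, the mean that replaced dim Ciart values in STAM-INS. Those levels can be too dim to measure. Nr1d1 had an SD of 0.68, and the genes most like it were Abcg8 at 0.25 and Abcg5 at 0.28, which together form the sterol exporter of the liver, then Fscn3 at 0.30 and Sec14l5 and Uty, both at 0.32. These genes shared the low value of STAM-INS replicate 2. Sec14l5 and Uty had STAM-INS means of -3.50 and -3.31, not far above -4.00, so their low value there can be too dim to measure. The points share arrays and scaling, so this is a description.

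**Figure D5:**
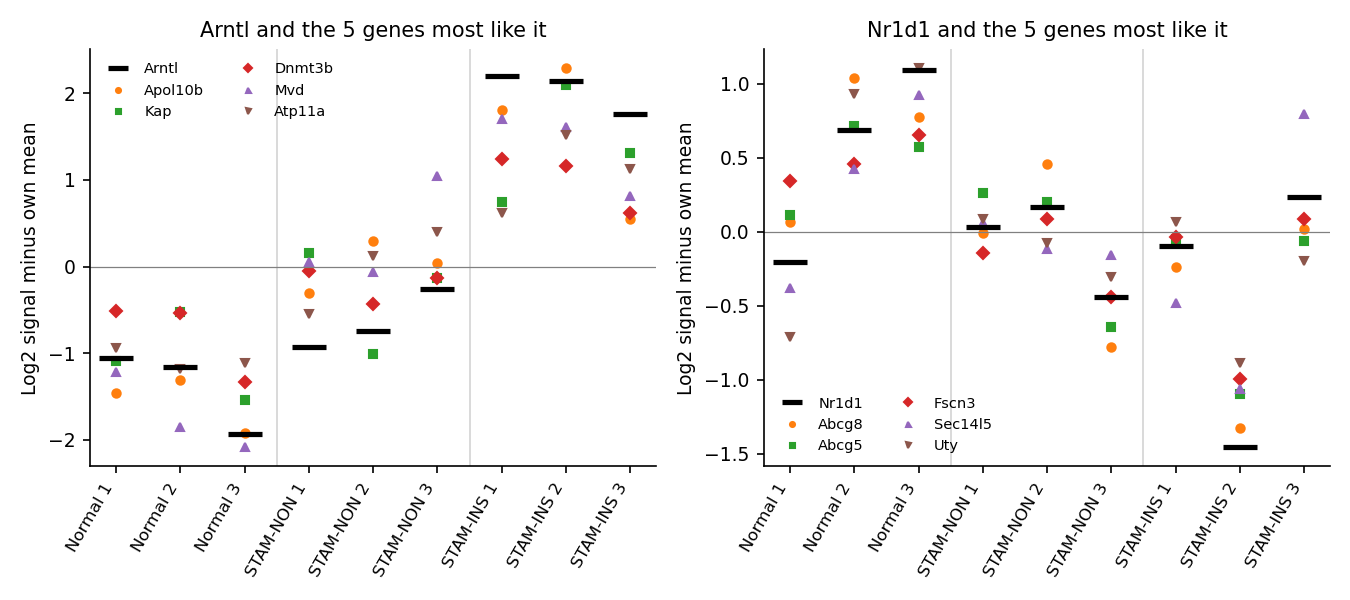
Log2 signal minus the gene's own mean (y axis) on the 9 arrays (x axis) for Arntl and Nr1d1 (black bars) and the 5 genes most like each (coloured points). Arntl sits above 0 on the 3 STAM-INS arrays and below it on the other 6, and the Nr1d1 panel has its lowest point at STAM-INS replicate 2.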

How the data were processed

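Liver RNA of 3 STAM-NON, 3 STAM-INS and 3 Normal mice was measured on 9 arrays, and groups and replicate numbers came from the sample labels. The deposited files hold the intensity of each spot from Agilent Feature Extraction 11.5.1.1 on a linear scale, background-subtracted by the authors (the processed signal), with median spot and background intensity and flags, not normalised between arrays. The labels name one RNA extraction kit, and the study's array methods name another. The array was designed on mm9. Control spots and 161 to 217 outlier spots per array were left out, and spots of 1 probe were averaged. The deposited signal was taken to log2 and each array's 75th percentile subtracted. Accessions matched to a RefSeq table (GRCm38.p6, names only) named 27656 of 55681 probes.

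Testing needed a share of 0.5 or more of a probe's spots flagged well above background on each of the 3 arrays of some group, which left 26289 probes. Differences came from limma 3.58.1 (R 4.3.3; lmFit, eBayes, two-sided, 6 residual degrees of freedom, Benjamini-Hochberg over all tested probes, threshold 0.05), and the study's methods name no test for these arrays. The code was tested on simulated data. The members and lists were chosen with earlier results of these data known. All 9 members are named, as are list genes past the threshold between STAM-INS and STAM-NON or otherwise up to 3 with the largest difference per list. A few list genes are not reported here. Where a gene had several probes, the brightest was used. Bounds replace dim values by the lowest signal of a probe well above background on the same array. Alternatives were other scalings, normexp (offset 50, on the median spot signal, since a mean was not used here), other filters, other fits, blocks and leaving out each array. The number of arrays limits the precision.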

Additional observations from a re-analysis of the deposited data

How the results depend on the processing

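Of the members, 3 passed between STAM-INS and STAM-NON. This fell to 1 with no filter, with detection required on all 9 arrays (which leaves out Per3 and Ciart), with the replicate block and with the array row as a block, and lay between 1 and 3 with 1 array left out. Between STAM-NON and Normal 0 became 1 under normexp, and was 0 with any array left out. Between STAM-INS and Normal 7 became 4 with no filter, and 5 to 7 with 1 array left out. Of the other clock genes, the 4 calls between STAM-INS and STAM-NON became 1 with no filter, with only the 2 groups compared and with the replicate block, 2 with the row block, and 1 to 4 with 1 array left out. They were 2 when STAM-NON replicate 1 or STAM-INS replicate 2 was dropped, and 1 without STAM-NON replicate 2 or without any single Normal array. For STAM-NON against Normal the 2 calls became 0 under median centring, with no filter, with the row block and when over 2-fold was required, 1 with only the 2 groups or the replicate block, 5 with trend and robust and 7 under normexp, and 0 to 3 with 1 array left out. For STAM-INS against Normal the 9 calls ranged from 6 to 12 over all alternatives, and from 6 to 10 with 1 array left out. The cause of these changes was not tested, apart from the probes a filter removes. Same-numbered arrays did not deviate together (correlations -0.29 to 0.15), and the main fit did not pair them. This check cannot exclude a shared order of collection or processing behind the numbers. Over all probes, the 25 calls between STAM-INS and STAM-NON became 6 with no filter, with detection on all 9 arrays or with the replicate block, 8 with only the 2 groups, 13 with the row block and 10 to 110 with 1 array left out. The 3886 for STAM-NON against Normal became 15 with the row block, where row and group coincide. They became 248 with no filter, 1793 with the replicate block and 2301 with only the 2 groups, and 892 to 5385 with 1 array left out. The 3481 for STAM-INS against Normal became 575, 2012 and 1726 with no filter, the row block and the replicate block, 1973 with spike-in centring and 1007 to 4187 with 1 array left out. Scaling moved the split of calls for STAM-NON against Normal from 1700 higher and 2186 lower to 2443 and 438 with spike-in centring, and the all-probe median from -0.11 to 0.14, or to -0.30 with median centring. Member differences kept their sign between STAM-INS and Normal in every alternative, and between STAM-INS and STAM-NON except Nr1d1 without STAM-INS replicate 2. Between STAM-NON and Normal, Clock, Per1, Per3 and Cry2 changed sign in 2 or 3 of them. Dim signals limit Per3 and Ciart.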
